A study of Mus musculus with 7 samples.

Results

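The genes examined were the 8 subunits of the cytosolic chaperonin TRiC/CCT in mouse motor cortex. They were taken by gene symbol from the deposited count table (Tcp1, Cct2, Cct3, Cct4, Cct5, Cct6a, Cct7 and Cct8), 8 of its 54532 genes, and all 8 were found and passed the filter on low counts. RNA-seq had been run on 7 motor cortex libraries, 3 labelled WT and 4 labelled cKO (conditional knockout). All mice, of either genotype, had received a virus named GA100 in the left and right lateral ventricles on postnatal day 0. Tissue was taken 3 months after the injection, once behaviour had been tested, and no uninjected mice were analysed here. By its title the series concerns C9orf72 poly-GA mice and TIA1, an RNA-binding protein of stress granules. Poly-GA is a repeat protein of alternating glycine and alanine. The labels name neither the deleted exons nor the Cre driver, and they do not say what the replicate numbers stand for. They also do not state that each library came from a separate mouse, so the p-values below rest on how far these libraries differ among themselves.

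TRiC/CCT is a barrel of a pair of stacked rings, each built from 8 related subunits in a fixed order, 1 copy of each per ring. It takes up newly made proteins, closes a lid over them with the energy of ATP and releases them folded; actins and tubulins are its best known clients. Prefoldin hands it actin and tubulin chains, phosducin-like proteins work with it on G protein beta subunits and cytoskeletal clients, and in neurons the complex has been studied for its effect on the aggregation of repeat proteins. Because the complex needs each subunit in equal number, the questions put to the data were how much transcript each gene had, whether the amounts differed between genotypes, how far they departed from equal parts, and whether they moved together from library to library.

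Tia1 was read from the title as the targeted gene, and the libraries labelled cKO did not have less of it. It stood at 60.6, 95.8 and 68.9 CPM (counts scaled to library depth, with TMM factors) in WT 1 to 3 and at 81.4, 80.3, 72.7 and 81.9 CPM in cKO 1 to 4. The log2 fold change (always cKO minus WT) was 0.07 ± 0.13 (SE), with an edgeR quasi-likelihood adjusted p of 0.914, and it turned to -0.06 without WT 1. The cKO values all lay within the WT range, so this gene gives no check of the genotype labels, and every direction given here refers to a library's label. Library totals ran from 15181390 to 16463721 counts. The library labelled cKO 3 had the fewest genes with any count, 23168 against up to 24956 in the others, and the highest share of mitochondrial counts, 7.54% against 5.50% to 6.40%. Over all 16308 tested genes, edgeR called 0 (0%) at an adjusted p under 0.05, with a smallest adjusted p of 0.669, while 1164 genes (7.14%) had an unadjusted p under 0.05. Limma-voom likewise made 0 calls (1106 genes under an unadjusted p of 0.05), and DESeq2 called 12.

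The sequences before the start sites are shown first, because genes that move together across libraries are read below and these stretches are where 3 widely known promoter motifs were searched. Promoters of 7 of the 8 subunits were matched by symbol in a RefSeq table (build GRCm38.p6); Cct4 was not matched. Each window ran from 250 bases before to 50 bases after the start site, and both strands were searched. The motifs were the core of the heat shock element bound by HSF1 (GAANNTTC or TTCNNGAA), the CCAAT box bound by NF-Y (CCAAT, or ATTGG on the other strand) and the site of ETS factors (CCGGAAGT, or ACTTCCGG on the other strand). The motifs do not share letters where they occur below. Of all 32851 promoters of the table, 15.1% held the heat shock core, 37.4% the CCAAT box and 3.89% the ETS site. Among the 7 subunits, 2 held the heat shock core (Cct5 and Cct6a), 4 a CCAAT box (Tcp1, Cct3, Cct6a and Cct7) and 2 an ETS site (Tcp1 and Cct8), and Cct2 held none of the 3. A match is a run of letters, not a measured binding site. The stretches of Cct5, Cct8 and Cct7 are printed as the clearest example of each motif, on the strand of the gene, with the matched letters in capitals. They lie at chr15:31601847-31602046 on the minus strand, chr16:87495874-87496069 on the minus strand and chr6:85451305-85451504 on the plus strand, and start 200 bases before the RefSeq start site.

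Cct5: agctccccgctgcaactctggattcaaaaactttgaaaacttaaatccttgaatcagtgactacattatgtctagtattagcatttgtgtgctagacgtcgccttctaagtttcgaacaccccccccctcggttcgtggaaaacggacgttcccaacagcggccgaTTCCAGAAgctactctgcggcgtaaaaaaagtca
Cct8: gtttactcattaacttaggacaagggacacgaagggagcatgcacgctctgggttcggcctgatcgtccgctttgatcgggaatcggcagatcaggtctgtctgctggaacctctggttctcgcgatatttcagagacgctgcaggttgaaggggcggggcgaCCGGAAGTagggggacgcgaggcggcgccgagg
Cct7: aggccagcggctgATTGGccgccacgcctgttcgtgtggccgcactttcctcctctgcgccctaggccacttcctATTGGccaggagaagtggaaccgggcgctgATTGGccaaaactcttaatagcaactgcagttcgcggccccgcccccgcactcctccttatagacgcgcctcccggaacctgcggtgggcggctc

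In Cct5 the heat shock core starts at position -34 from the start site, and in Cct8 the ETS site starts at position -37. The heat shock core of Cct6a starts at position 24, after the start site. Cct7 carries 3 inverted CCAAT boxes, at positions -187, -125 and -95, the most of the 7 genes; Cct3 and Cct6a carry 2 each.

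The first comparison asked whether the level of any subunit differed between the genotypes. None of the 8 passed the edgeR test, and none had groups that did not overlap. The fold changes were small, from -0.06 for Cct2 to 0.17 for Cct4 on the log2 scale, with standard errors of 0.07 to 0.11. The feature that 7 of the 8 shared was their highest value in the same library, labelled cKO 3. The plot of CPM by library shows these values.

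**Figure D1:**
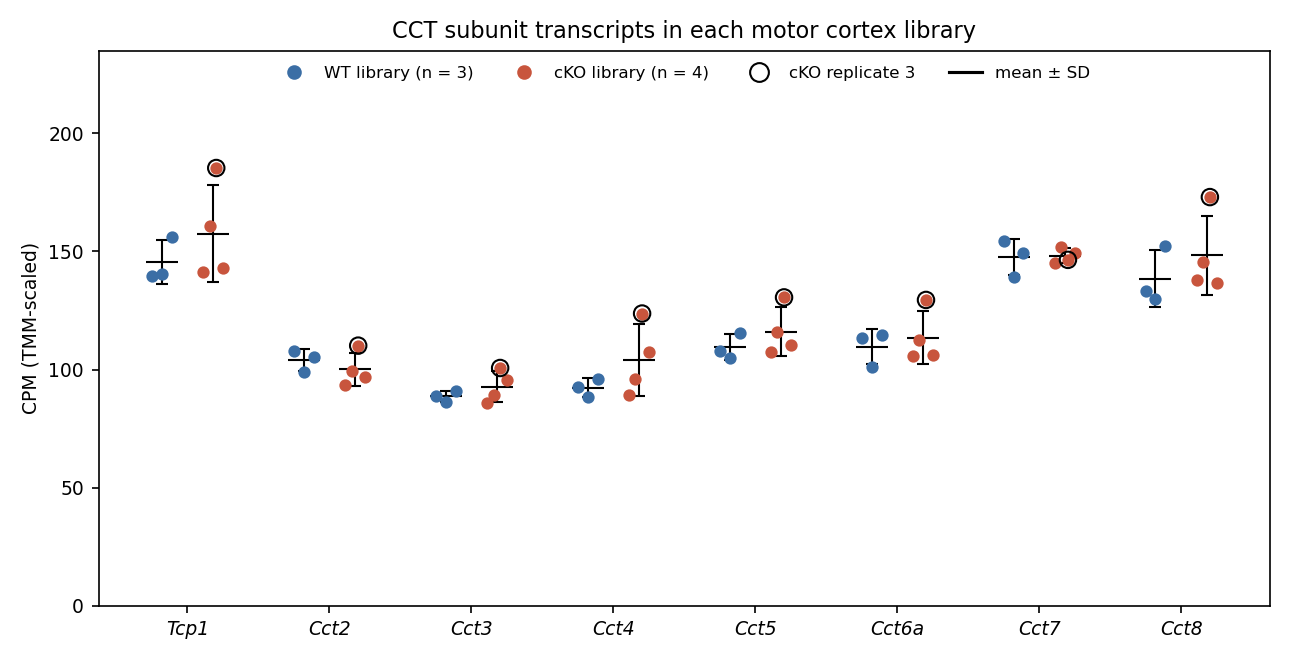
TMM-scaled CPM of each subunit gene in the 3 WT (blue) and 4 cKO (red) libraries, with group mean and SD; the ringed point is the library labelled cKO 3. It is the highest of the 7 points for every gene except Cct7, and no gene has groups that do not overlap.

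Tcp1 encodes CCT1, the founding subunit of the family (chromosome 17, 12915701 to 12925067, plus strand, mm10 here and for all genes). It had 139.7, 140.6 and 156.1 CPM in WT 1 to 3 and 141.4, 160.7, 185.3 and 142.9 CPM in cKO 1 to 4. The libraries labelled cKO 3 and cKO 2 lay above all WT values and the other 2 cKO libraries inside the WT range. Its log2 fold change was 0.12 ± 0.10 (SE, edgeR adjusted p = 0.818).

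Cct4 (chromosome 11, 22990519 to 23003780, plus strand) and Cct5 (chromosome 15, 31590800 to 31601804, minus strand) encode subunits on the side of the ring known for tight ATP binding, and variants of CCT5 are known from an inherited sensory neuropathy. Cct4 stood at 92.4, 88.2 and 96.2 CPM in WT and at 89.1, 96.0, 123.7 and 107.5 CPM in cKO. It had the largest fold change of the 8, 0.17 ± 0.11 (SE, log2; edgeR adjusted p = 0.743; 95% interval -0.06 to 0.40). The libraries labelled cKO 3 and cKO 4 were above every WT value, whereas cKO 1 and cKO 2 were among them. Cct5 had 107.9, 104.9 and 115.6 CPM in WT and 107.2, 115.9, 130.6 and 110.3 CPM in cKO, with a log2 fold change of 0.08 ± 0.08 (SE, edgeR adjusted p = 0.846). Here cKO 3 stood apart and cKO 2 was just over the highest WT value.

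Cct2 (chromosome 10, 117051001 to 117063814, minus strand) encodes the beta subunit, which has also been described as a receptor for autophagy of protein aggregates. It was the only subunit with a fold change below 0. Its CPM were 107.8, 98.9 and 105.3 in WT and 93.5, 99.5, 110.1 and 96.9 in cKO. The log2 fold change was -0.06 ± 0.08 (SE, edgeR adjusted p = 0.897). Of its cKO libraries 2 lay under all WT values, cKO 2 lay within them and cKO 3 above them.

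Cct3, Cct6a and Cct8 encode subunits of the side of the ring known for weak ATP binding. Cct3 (chromosome 3, 88297116 to 88321767, plus strand) had 88.6, 86.3 and 91.1 CPM in WT and 85.7, 89.4, 100.7 and 95.4 CPM in cKO. Cct8 (chromosome 16, 87483326 to 87495873, minus strand), whose product has been linked to assembly of the complex, had 133.2, 130.0 and 152.4 CPM in WT and 138.0, 145.3, 173.0 and 136.8 CPM in cKO. Both genes had cKO 3 on top; cKO 4 was also above WT for Cct3, and the other cKO libraries of both genes were inside the WT range or, for Cct3 in cKO 1, just under it. Log2 fold changes were 0.07 ± 0.08 for Cct3 and 0.10 ± 0.10 for Cct8 (SE, edgeR adjusted p = 0.871 and 0.844). Cct6a (chromosome 5, 129786998 to 129846371, plus strand) had 113.2, 101.0 and 114.7 CPM in WT and 105.8, 112.6, 129.5 and 106.3 CPM in cKO, with a log2 fold change of 0.05 ± 0.09 (SE, edgeR adjusted p = 0.915). In this gene 3 of the 4 cKO libraries were inside the WT range.

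Cct7 (chromosome 6, 85451514 to 85468475, plus strand), the eta subunit, was the exception in its pattern over libraries. It had 154.3, 139.1 and 149.2 CPM in WT and 145.2, 152.0, 146.4 and 149.5 CPM in cKO, so all cKO libraries lay inside the WT range and the highest value was in WT 1. Its log2 fold change was 0.01 ± 0.07 (SE, edgeR adjusted p = 0.987), and its coefficient of variation over the 7 libraries, 3.36%, was the lowest of the 8, against up to 12.8% for Cct4. Cct7 lies 936 kb from Tia1 on the same chromosome.

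Read against all tested genes, 0 of 8 subunits at an unadjusted p under 0.05 compares with 7.14% of genes, and 0 of 8 with groups that do not overlap compares with 7.38%. Fold changes were above 0 for 7 of 8 subunits, with a median of 0.07 (log2), against 51.8% of all genes and a median of 0.01. Under the other scalings, filters and tools 6 or 7 of 8 were above 0. The library labelled cKO 3 held the highest value for 7 of 8 subunits and for 24.9% of all genes. Exact two-sided permutation tests over the 35 splits of 3 against 4 gave p from 0.286 to 0.857 for the 8 genes, where the smallest p the design allows is 0.0571. These tests leave the replicate numbers aside. Tcp1 and Cct8 were higher in the cKO library of each of the 3 numbered pairs, and with the number as a block their log2 fold changes were 0.15 and 0.13 (edgeR adjusted p = 0.715 and 0.734). The upper ends of the 95% intervals, at most 0.40 (Cct4), and the lower ends, at least -0.23 (Cct2), give the range of differences within the precision of these libraries.

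Without the library labelled cKO 3 the median log2 fold change of the 8 genes was 0.01, and 6 of 8 were above 0. Without WT 2 the median was 0.04, and 5 of 8 were above 0. Tcp1 stood at 0.02, Cct5 at 0.01, Cct8 at 0.01, Cct4 at 0.07 and Cct2 at -0.11 without the library labelled cKO 3. Cct6a turned to -0.03 without that library and to -0.02 without WT 2; Cct7 turned to -0.04, -0.012 and -0.0027 without WT 2, cKO 2 and cKO 4 in turn.

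**Figure D2:**
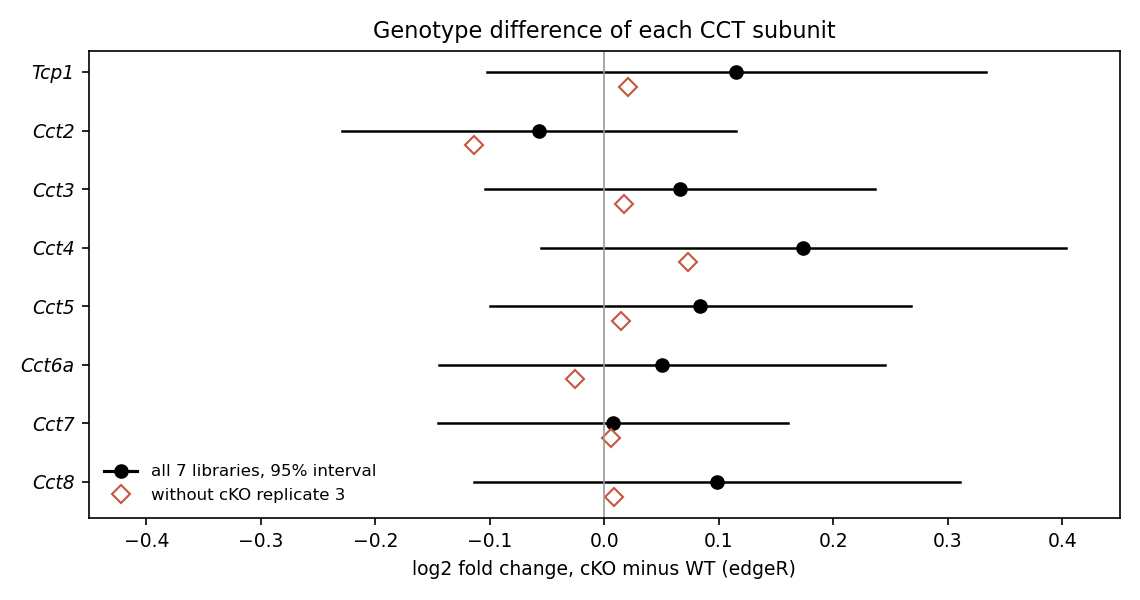
Log2 fold change (cKO minus WT) of each subunit from edgeR, with its 95% interval over the 7 libraries (black) and the value without the library labelled cKO 3 (open diamond). Every interval spans 0, and without that library every value but that of Cct7 moves to the left by more than 0.04.

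Some of these genes overlap neighbours in their whole spans, introns included. By the deposited gene coordinates, Tcp1 overlaps Mrpl18 and Acat3 on the opposite strand by 645 and 1255 bases. Cct6a overlaps Psph by 452, Cct7 overlaps Pradc1 by 457 and Cct8 overlaps Usp16 by 192. How many of these bases are exons of both genes is not given here. The library protocol describes no strand marking, so these 4 subunits' counts are uncertain wherever exons are shared. The neighbours' own counts were lower, at most 536 (Usp16) against at least 2105 for Cct8. In the deposited table Cct6a is annotated as a processed transcript rather than protein-coding. The testis-type copy Cct6b had 0 to 4 counts per library and Cct8l1 had 1 to 6, and the pseudogenes Cct3-ps1 and Tcp1-ps1 had 0, and none of them was tested.

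The second question was how the transcripts compared with the equal parts of the protein complex. On the deposited FPKM scale (fragments per kilobase of gene, scaled to sequencing depth), which corrects for length and so allows levels of different genes to be compared, the 8 genes were not at 1 level. Mean FPKM over the 7 libraries was 46.5 for Cct8, 40.8 for Cct5, 39.6 for Cct2, 30.8 for Cct6a, 30.2 for Tcp1, 23.5 for Cct4, 21.7 for Cct7 and 14.2 for Cct3. Over the libraries, neighbours in this order overlapped, except between Cct2 and Cct6a and between Cct7 and Cct3, where every FPKM value of the first gene was above every value of the next.

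The summed FPKM of the 8 genes was 243, 228 and 255 in WT and 231, 248, 287 and 241 in cKO, so 3 of the 4 cKO libraries were in the WT range and cKO 3 above it. Group means were 242 ± 13.3 (SD, n = 3) and 252 ± 24.4 (SD, n = 4), a ratio of 1.04, or 0.992 without the library labelled cKO 3. Summed CPM gave ratios of 1.05 and 1.01. These sums were not tested, since they score chosen genes. In bulk tissue, fewer cells of a type and less RNA per cell cannot be told apart, so a level here is a level of the whole tissue piece.

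Equal parts would give each gene 12.5% of the sum. On FPKM, Cct8 took 18.8%, Cct5 16.48%, Cct2 16.1%, Cct6a 12.4%, Tcp1 12.2%, Cct4 9.47%, Cct7 8.83% and Cct3 5.76%, and the highest share was 3.26 times the lowest. This spread depends on the gene length used. The deposited lengths equal the union of all annotated exons of each gene, from 2557 bases for Cct2 to 6778 for Cct7 and 6370 for Cct3, and these unions include retained-intron transcripts in 7 of the 8 genes (all but Cct2). With counts divided by the length of 1 annotated transcript per gene (1853 to 2484 bases), an alternative chosen after seeing the data, the highest share was 1.56 times the lowest. The order then changed: Tcp1 was highest at 14.5%, followed by Cct5 (14.3%), Cct7 (14.2%), Cct8 (14.1%), Cct2 (12.2%), Cct3 (10.8%), Cct6a (10.7%) and Cct4 (9.30%). On that scale Cct3 moved from 5.76% to 10.8%, and Cct7 from below to above the equal part. Shares of raw counts spread 1.67 times.

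**Figure D3:**
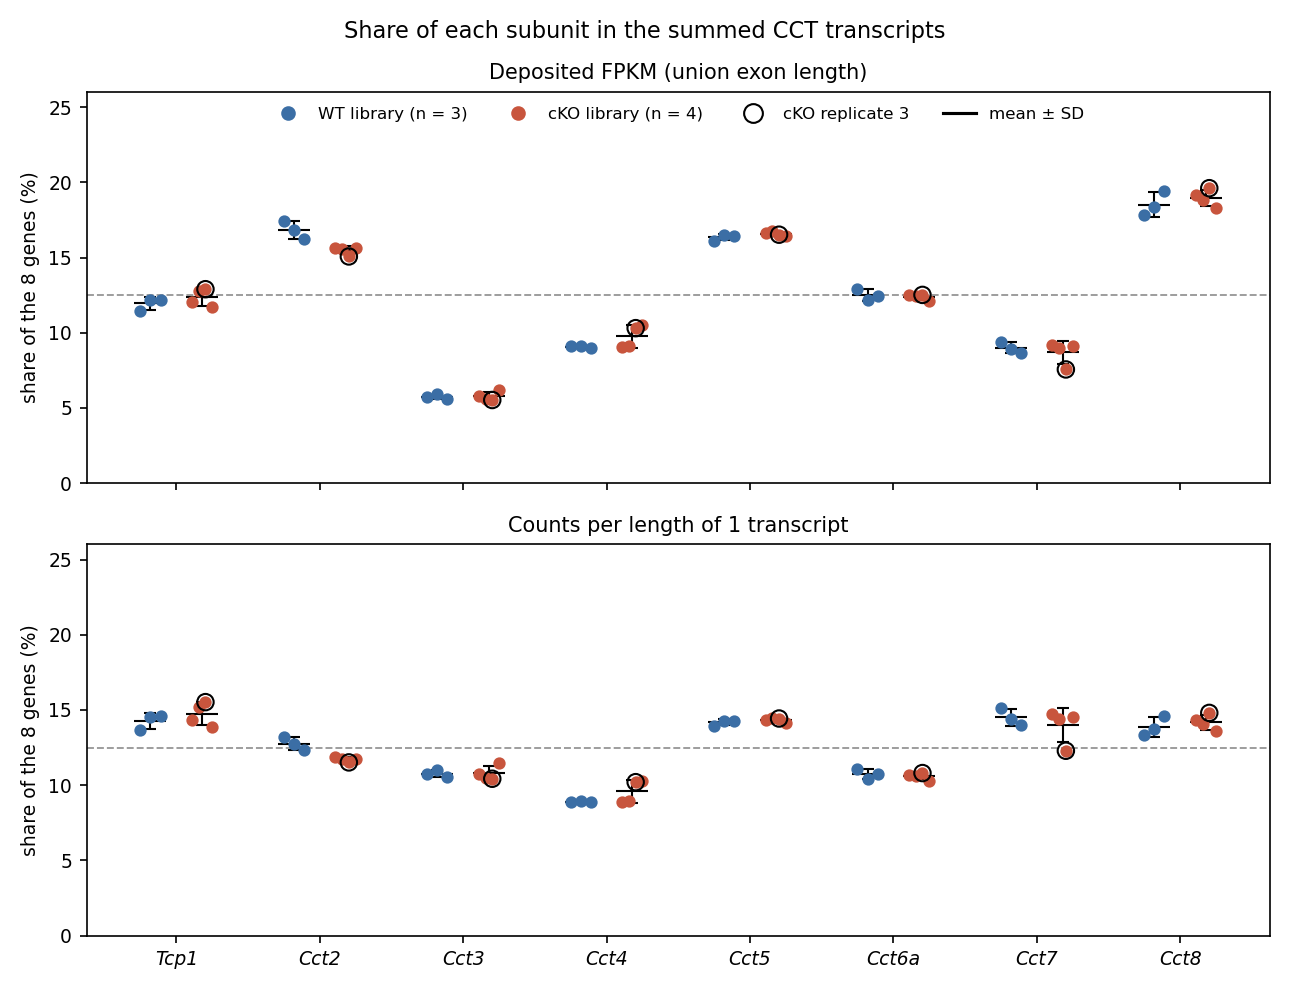
Share of each gene in the sum over the 8 subunit genes, in percent, per library, with group mean and SD: deposited FPKM (top) and counts per length of 1 transcript (bottom); the dashed line is the equal part of 12.5%. Cct3 and Cct7 differ most between the panels, Cct2 is lower in every cKO (red) than in every WT (blue) library, and Cct7 is lowest in the ringed library labelled cKO 3.

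Shares were also compared between the groups. Cct2 took 17.4%, 16.8% and 16.2% of the summed FPKM in WT and 15.7%, 15.5%, 15.1% and 15.6% in cKO. Every cKO library was below every WT library, with group means of 16.8% ± 0.61 (SD, n = 3) and 15.5% ± 0.28 (SD, n = 4). It was the only subunit whose shares did not overlap between groups, and the same held on counts and on the length of 1 transcript. These scales use the same counts with other length weights, so this is no separate check. The size of the difference depends on the lengths, which weight the sum: it was -1.34 points on FPKM, -0.92 on counts and -1.03 on the length of 1 transcript. Relative to the same sum of CPM, 16300 genes (each symbol counted once, the subunits included) could be placed, and 6.5% of them had groups that did not overlap; the 1 of 8 is given beside that share as a description.

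Cct4 showed another pattern. Its share was 9.09%, 9.14% and 9.002% in WT and 9.09% and 9.13% in cKO 1 and cKO 2, close together over these 5 libraries, but 10.3% in cKO 3 and 10.5% in cKO 4. The groups overlapped. Cct7 took 9.41%, 8.94% and 8.66% in WT and 9.17%, 8.96%, 7.56% and 9.10% in cKO, so cKO 3 alone was low. In that library the other 7 genes were 1.10 (Cct2) to 1.30 (Cct4) times the mean CPM of the other 6 libraries, and Cct7 was 0.988 times that mean. Cct5 held a share from 16.1% to 16.7% over all 7 libraries.

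The third question was whether the subunit transcripts moved together across libraries. Most did: over the 28 pairs the median Pearson r of log2 CPM was 0.76 (n = 7 libraries). Cct7 did not share the pattern, with r from 0.08 (Tcp1) to 0.38 (Cct6a) with the other subunits, a median of 0.18, against a median of 0.79 over the 21 pairs without it. The mean profile of the 8 genes, in log2 units around each gene's mean, was -0.03, -0.11 and 0.03 in WT and -0.09, 0.01, 0.20 and -0.01 in cKO, so the library labelled cKO 3 was the high end and WT 2 the low end.

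Of the 28 pairs, 6 had an exact permutation p under 0.05 after Benjamini-Hochberg adjustment over the 28. No matching count or median r over pairs of other genes is given here. The 6 therefore describe these pairs and do not set the subunits apart from other genes. Cct3 and Cct4 were the closest pair, with r = 0.99, Spearman's rho = 0.96 and an exact permutation p of 0.000595 for r (adjusted 0.0167). Leaving out the libraries labelled cKO 3 and cKO 4, the farthest from the median of Cct3, left r = 0.95 over 5 libraries. For each pair the libraries left out were picked by the first gene named alone. Tcp1 with Cct5 had r = 0.98 and rho = 0.89 (exact permutation p = 0.00119, adjusted 0.0167), with r = 0.91 without cKO 2 and cKO 3. Cct5 with Cct8 had r = 0.98 and rho = 0.86 (exact permutation p = 0.00179, adjusted 0.0167), and 0.88 without WT 2 and cKO 3. Cct3 and Cct4, Tcp1 and Cct5, and Cct5 and Cct8 thus held their relation without the libraries left out for each pair.

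Tcp1 with Cct8 reached r = 0.96 and rho = 0.89 (exact permutation p = 0.00575, adjusted 0.0378) and kept r = 0.95 without cKO 2 and cKO 3. Cct5 with Cct6a reached r = 0.93 and rho = 0.82 (exact permutation p = 0.00675, adjusted 0.0378) but 0.61 without WT 2 and cKO 3. Cct6a with Cct8 reached r = 0.91 and rho = 0.75 (exact permutation p = 0.00853, adjusted 0.0398) but 0.52 without the same libraries, so both relations of Cct6a rest in part on them. By Spearman's rho, 0 of the 28 pairs passed the adjustment; the smallest adjusted value was 0.0778, for Cct3 with Cct4, whose exact permutation p was 0.00278. Groups of 3 and 4 libraries are too small for r within a genotype, but deviations from the group means gave a median r of 0.80 over the 28 pairs.

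**Figure D4:**
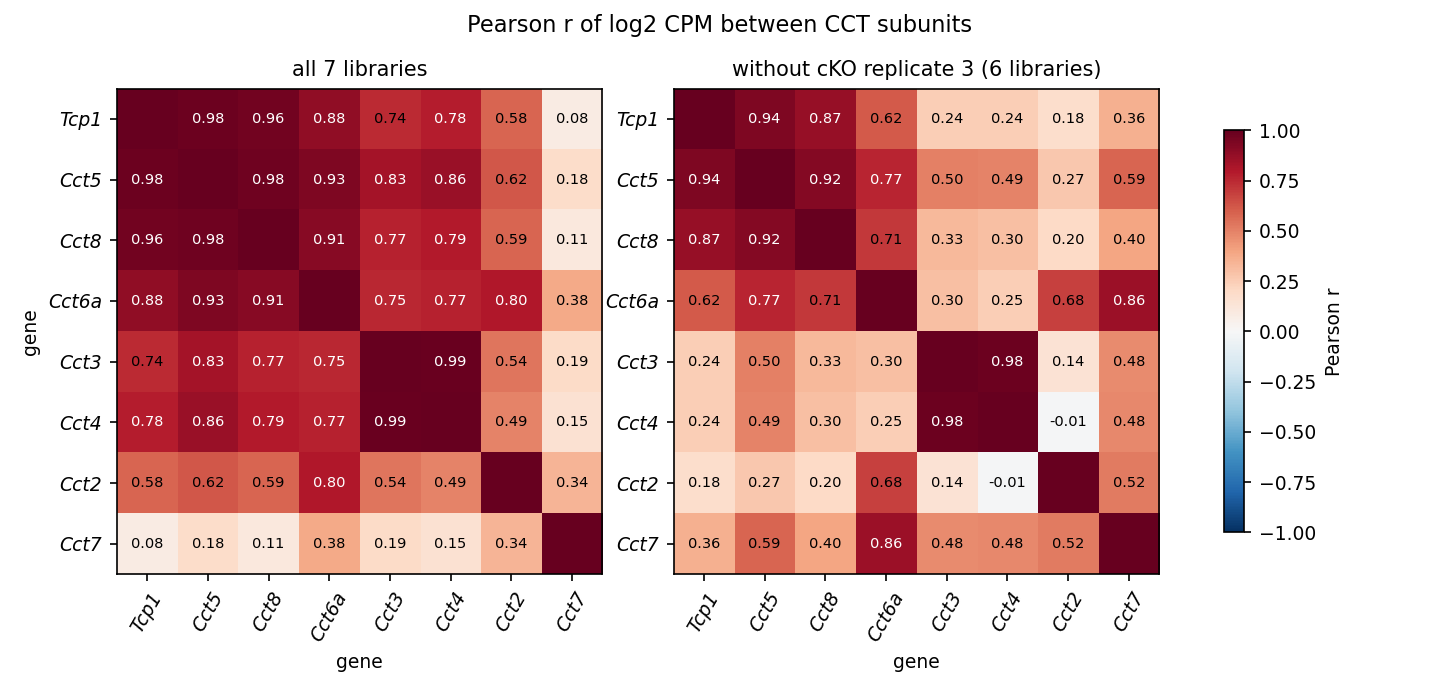
Pearson r of log2 CPM between subunit genes over all 7 libraries (left) and without the library labelled cKO 3 (right, 6 libraries); the colour scale runs from -1 to 1. On the left Cct7 is the pale row, and on the right 2 blocks keep high values, Tcp1 with Cct5 and Cct8, and Cct3 with Cct4. Outside these blocks, Cct6a on the right stands at 0.86 with Cct7, 0.77 with Cct5, 0.71 with Cct8 and 0.68 with Cct2.

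The library labelled cKO 3 carried much of this. Without it the median r fell to 0.48 over all 28 pairs and to 0.33 over the 21 pairs without Cct7, while the median over the 7 pairs with Cct7 was 0.48. The closest pairs stayed close over the remaining 6 libraries: Cct3 with Cct4 at 0.98, Tcp1 with Cct5 at 0.94, Cct5 with Cct8 at 0.92 and Tcp1 with Cct8 at 0.87. Between those blocks r ran from 0.24 for Tcp1 with Cct3 and with Cct4 to 0.49 for Cct4 with Cct5 and 0.50 for Cct3 with Cct5. For Cct5 and Cct8 against Cct3 and Cct4 that gap rests on the library labelled cKO 4: without both cKO 3 and cKO 4, r over 5 libraries was 0.96 for Cct4 with Cct5, 0.86 for Cct3 with Cct5, 0.84 for Cct4 with Cct8 and 0.77 for Cct3 with Cct8. Over the 6 libraries Cct2 with Cct4 stood at -0.01. Cct7 with Cct6a, at 0.38 over 7 libraries, stood at 0.86 over these 6.

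Against the mean profile of the other 7 subunits, Cct5 had r = 0.98, Cct6a 0.94, Cct8 0.92, Tcp1 0.91, Cct3 0.86, Cct4 0.84, Cct2 0.65 and Cct7 0.21 (7 libraries). As a scale for these values, the share of other tested genes with a higher r to the same profile was 0.0737% for Cct5, 0.927% for Cct6a, 1.53% for Cct8 and 1.97% for Tcp1. It was 4.55% for Cct3, 5.54% for Cct4, 16.02% for Cct2 and 37.8% for Cct7. Cct5, which sat at the centre of the group, and Cct7, which sat outside it, were the extremes. Without the library labelled cKO 3, Cct5 stayed at 0.91 (0.626% of genes higher), Cct2 stood at 0.33 (26.2%) and Cct7 at 0.70 (7.20%). These values are descriptions: all genes share the same libraries, scaling and depth.

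The pattern was not limited to chaperonin genes. Outside the 8, the genes closest to their mean profile were Elavl2 (r = 0.99), an RNA-binding protein of neurons, Anp32a (0.99), a nuclear acidic protein, Xkr4 (0.99), a member of the XK family of membrane proteins, Usp12 (0.99), a deubiquitinase, and Adam10 (0.98), a membrane protease. With each symbol counted once, 16292 other genes were tested, and of these 459 (2.82%) had r above 0.9.

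The fourth question was how the partners and clients of the chaperonin compared. None of these lists had a called gene (0% of all genes), so each is described by signs and medians beside the 51.8% of all genes above 0 and their median of 0.01. Subunits and heat shock chaperones sat mostly above 0, and prefoldin, tubulin cofactors, actins and tubulins mostly below 0. The plot of fold changes by list shows them side by side.

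**Figure D5:**
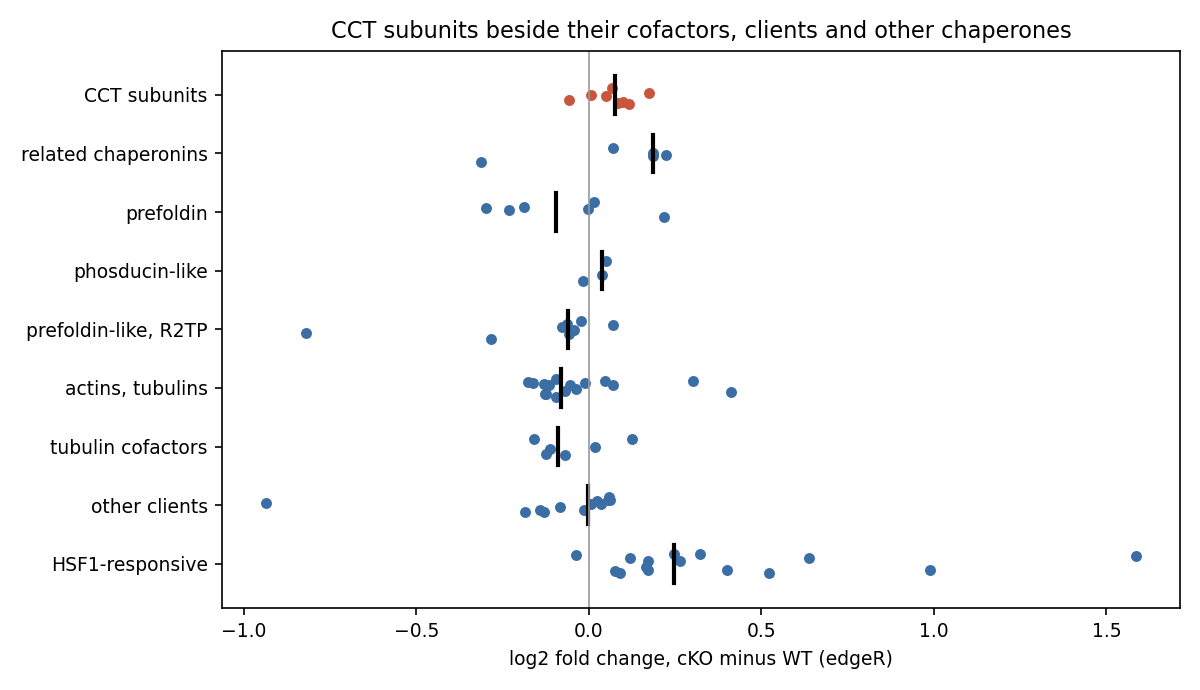
Log2 fold change (cKO minus WT, edgeR) of each measured gene of the lists, 1 point per gene, with the list median as a black bar; the CCT subunits are in red. The subunit median is 0.07, that of HSF1-responsive chaperones listed with Hsf1 itself 0.25 and that of actins and tubulins -0.08. No point passed an edgeR adjusted p under 0.05.

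Of the other chaperonin genes, 4 of 5 measured were above 0, with a median of 0.19. Hspd1 and Hspe1, which encode the mitochondrial chaperonin and its co-chaperonin, had log2 fold changes of 0.19 ± 0.09 and 0.22 ± 0.11 (SE), with 136.8 ± 8.55 CPM (SD, n = 3 WT) against 155.6 ± 14.2 CPM (SD, n = 4 cKO) for Hspd1. Mkks, Bbs10 and Bbs12 encode chaperonin-like proteins that act with CCT in building the BBSome of cilia, and they stood at 0.07 ± 0.13, -0.31 ± 0.18 and 0.19 ± 0.20. Mkks turned to -0.02 without WT 1 and to -0.00485 without the library labelled cKO 3.

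Prefoldin, the jellyfish-shaped complex of 6 subunits that delivers chains to CCT, had 2 subunits above and 4 below 0 and a median of -0.10. Pfdn6 (-0.30 ± 0.17), Pfdn1 (-0.23 ± 0.11) and Pfdn2 (-0.19 ± 0.12) had the lowest fold changes, Pfdn5 (-0.0039 ± 0.08) and Vbp1 (0.01 ± 0.10) were near 0 and Pfdn4 stood at 0.22 ± 0.15 (log2, SE). As a description of their profiles, r with the mean CCT profile over the 7 libraries was -0.72 for Pfdn2, -0.69 for Pfdn6, -0.57 for Pfdn1 and -0.42 for Pfdn5, and 0.48 and 0.47 for Pfdn4 and Vbp1. In the library labelled cKO 3, where 7 CCT subunits were highest, Pfdn2 had 28.6 CPM against 33.3 to 45.3 CPM in the other 6 and Pfdn6 had 11.5 against 12.9 to 22.3 CPM. In the same library Vbp1 (54.99 against 43.0 to 51.0 CPM) and Pfdn4 (12.9 against 7.96 to 11.2 CPM) had their highest values, and Pfdn1 and Pfdn5 lay inside the range of the others. Vbp1 turned to -0.05 without WT 1 or the library labelled cKO 3, and Pfdn5 to 0.04, 0.02 and 0.01 without WT 1, cKO 2 and cKO 3 in turn.

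The phosducin-like co-chaperones, which hold CCT and its G protein or cytoskeletal clients together, stood near 0: Pdcl at 0.04 ± 0.10, Pdcl3 at -0.02 ± 0.14 and Txndc9 at 0.05 ± 0.08 (log2, SE), with a median of 0.04. Signs turned for Pdcl without WT 1 or cKO 3, for Pdcl3 without WT 3 or cKO 3 and for Txndc9 without WT 2. Pdcl2, a germ cell form, had at most 2 counts and was not tested. The prefoldin-like and R2TP genes, which work in assembly of large complexes, had 1 of 8 above 0 and a median of -0.06. Those of the highest CPM, Uri1 (-0.06 ± 0.08), Ruvbl1 (-0.08 ± 0.09) and Pdrg1 (-0.02 ± 0.10), were within 1 SE of 0. Pdrg1 turned to 0.0015 without WT 1 or cKO 3. In edgeR 1 of the 8, Uxt (-0.82 ± 0.29, SE), had an unadjusted p under 0.05, against 7.14% of all genes. It lies outside the rule for named genes and averaged 2.24 CPM in WT and 1.27 CPM in cKO.

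Actins and tubulins, the main clients, had 4 of 16 genes above 0 and a median of -0.08. Actb, the beta-actin gene, averaged 745.8 CPM in WT (SD 45.6, n = 3) and 711.2 CPM in cKO (SD 49.1, n = 4), Actg1 had a log2 fold change of -0.09 ± 0.11 (SE) and the tubulin gene Tubb4a 0.05 ± 0.09. In the library labelled cKO 3, 7 of these 16 genes had their highest value. Tubb4a turned to -0.05 without WT 2 and to -0.0021 without cKO 1. The tubulin cofactors, which take tubulins on from CCT, had 2 of 6 above 0 and a median of -0.09. The 3 of them with the highest CPM, not corrected for length, had r to the CCT profile of -0.91 for Tbce, -0.89 for Tbcd and -0.56 for Tbcb and log2 fold changes of 0.02 ± 0.14, -0.11 ± 0.09 and -0.07 ± 0.09 (SE); Tbca, second by mean FPKM (18.6), had r = 0.63. Other known clients, among them the G protein beta subunits Gnb1 (0.02 ± 0.08), Gnb2 (-0.14 ± 0.08) and Gnb5 (-0.01 ± 0.08), had 6 of 12 above 0 and a median of -0.0034. In edgeR 1 of the 12, Cdc20 (-0.94 ± 0.37, SE), had an unadjusted p under 0.05, against 7.14% of all genes. It lies outside the rule for named genes and averaged 1.26 CPM in WT and 0.65 CPM in cKO. Signs also turned for Tbce without WT 3, cKO 1 or cKO 4, for Gnb1 without WT 2, cKO 2 or cKO 3, and for Gnb5 without WT 3.

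The list of chaperones driven by HSF1, the heat shock transcription factor, also holds the gene of that factor, Hsf1. Of its 15 genes 14 were above 0, with a median of 0.25, and Hsf1, at -0.04, was the exception. In edgeR 7 of the 15 had an unadjusted p under 0.05, against 7.14% of all genes. Those 7, which fall outside the rule for named genes and were picked after their values were seen, were Hspa1b (1.59 ± 0.26), Hspa1a (0.99 ± 0.29), Hspb1 (0.64 ± 0.26), Bag3 (0.52 ± 0.15), Chordc1 (0.40 ± 0.11), Hsph1 (0.32 ± 0.13) and Dnajb1 (0.26 ± 0.10, log2, SE). The mean of the list in each library was taken in log2 units around each gene's mean. It was -0.22, -0.19 and -0.21 in WT and -0.14, 0.08, 0.40 and 0.27 in cKO. These groups did not overlap, whereas those of the subunits did. List means of the prefoldin-like and R2TP genes, of other clients and of excitatory neuron, inhibitory neuron and astrocyte markers also did not overlap. The summed CPM of the HSF1 list did overlap, at 4879 to 5556 in WT and 4887 to 6881 in cKO. Genes of the HSF1 list with the highest CPM were Hspa8 (0.08 ± 0.13), Hsp90ab1 (0.12 ± 0.09) and Hsp90aa1 (0.25 ± 0.15, log2, SE). The library labelled cKO 3 held the highest value for 11 of the 15; Hspa1b and Bag3 were among the other 4. Hsp90aa1, a cytosolic HSP90 gene, had 1866 CPM there and 1120 to 1409 CPM in the other 6, and its r with the CCT profile was 0.97. Without that library Hsp90aa1 was at 0.08, Hsp90ab1 at 0.08 and Hspa8 at -0.05, and the median of the subunits was 0.01, on the log2 scale.

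Markers of the cell types that the tissue could hold varied between libraries and, for some types, had 1 sign throughout, although none was called. All 8 markers of excitatory neurons were below 0 (median -0.21), with summed levels of 4853 to 5446 CPM in WT and 4017 to 4856 CPM in cKO, and all 8 markers of oligodendrocytes were above 0 (median 0.35), with 3804 to 5826 and 4105 to 8199 CPM. Of the inhibitory neuron markers 4 of 6 were above 0 (median 0.19; 802 to 903 and 886 to 1271 CPM), of astrocyte markers 5 of 6 (0.08; 4975 to 5505 and 5033 to 5659 CPM). Microglia had 1 of 6 above 0 (-0.12; 295 to 359 and 282 to 311 CPM) and endothelial cells 1 of 5 (-0.08; 196 to 238 and 216 to 229 CPM). None of the measured markers of these 6 cell types was at 0 in any library, so neurons and glia of the labelled tissue were present in all 7.

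Markers of tissue next to the motor cortex varied by library. Meningeal fibroblast markers had 3 of 6 above 0 (28.3 to 61.8 CPM in WT, 31.0 to 63.1 CPM in cKO) and were highest in WT 1 and cKO 3. Striatal neuron markers had 7 of 7 above 0 (795 to 1066 and 860 to 1542 CPM), highest in cKO 2. Choroid plexus markers had 3 of 3 measured above 0 (13.2 to 20.997 and 16.7 to 169.1 CPM), highest in cKO 4, with Folr1 at 0 counts in cKO 3. In the library labelled cKO 3, where 7 of the 8 subunits peaked, the oligodendrocyte mean was -0.48 and the meningeal mean 0.60, against -0.60 and 0.61 in WT 1, in log2 units around each gene's mean over the libraries. Excitatory neuron markers had a mean of -0.17 in cKO 3 and 0.17 in WT 1, inhibitory neuron markers 0.18 and -0.03, striatal markers 0.22 and -0.44, microglia markers -0.07 and 0.30 and endothelial markers -0.02 and 0.22. The mean of the 8 subunits was 0.20 in cKO 3 and -0.03 in WT 1. Single markers, chosen after their values were seen, followed the CCT profile closely or inversely: r over the 7 libraries was 0.94 for Gad2 and 0.92 for Gad1, the GABA-making enzymes of inhibitory neurons, -0.91 for Camk2a of excitatory neurons, and -0.94 for Aldh1l1 and -0.89 for Slc1a2 of astrocytes. The other markers of these types did not share 1 pattern. For inhibitory neurons r was 0.77 for Slc32a1, -0.71 for Pvalb, -0.02 for Sst and -0.01 for Vip. It ran from -0.45 (Fezf2) to -0.03 (Slc17a7) over the other excitatory neuron markers. Over the other astrocyte markers it ran from -0.18 (Gja1) to 0.67 (Aqp4). Gad1 had 591.5 CPM in cKO 3 against 345.9 to 439.1 CPM in the other 6. The part of cell composition, mitochondrial share or number of genes detected in the subunit values was not tested. Y-linked genes had 0 and 1 counts in WT 1 and cKO 1 and at least 2126 in the other 5 libraries. With that split of the libraries, rather than the level, as a covariate, 7 of 8 subunits were still above 0, with a median of 0.07.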

How the data were processed

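The deposited table of gene counts (whole numbers, raw) was made by the authors with featureCounts 1.5.0-p3 on build mm10, per the submitters' processing notes, which also name DESeq2 1.20.0. The deposited FPKM values come from the authors for the same genes, and imply a library total of 0.968 to 1.02 times the count sum. The sources used here do not name the aligner, the annotation release or the strand setting. There were 0 unnamed rows.

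Counts were fitted over the whole table with edgeR 4.0.16 in R 4.3.3 (TMM factors, filterByExpr, quasi-likelihood test, genotype only), with Benjamini-Hochberg adjustment over the 16308 genes left and an adjusted p under 0.05 called. Log2 CPM used a prior count of 2. Exact permutation tests went through every split or pairing of the libraries directly, with ranks from SciPy 1.17.1. Figures used matplotlib 3.10.9. The fit was tested on simulated data. Chi-square values per degree of freedom for pairs of libraries were 4.42 to 23.1, so no 2 libraries agreed within sampling noise.

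The members, the gene lists and the alternatives were chosen with earlier results of these data known. Named were all 8 subunits, every measured gene of the prefoldin, phosducin-like and related chaperonin lists, the 3 of highest mean CPM and any called gene of each other list of related genes, the 5 genes most like the mean profile, and Tia1. Over genes, deviations from the group means had r of 0.110, 0.128 and 0.122 between libraries numbered 1, 2 and 3. Each was above 0.1, the minimum that the rule set for pairs, and the numbers were used as a block in an alternative fit only. The main fit and the permutation tests left them aside. However, WT 2 with cKO 4 gave 0.210 and WT 1 with cKO 3 gave 0.129, both above every same-numbered pair. The rule thus does not single out pairs by number, and the labels leave the meaning of a number unstated. Alternatives were other scalings and filters, DESeq2 1.42.0, limma-voom and limma-trend (limma 3.58.1) on FPKM, the replicate block, Y-linked expression as a covariate and leaving out each library. Promoters were read from RefSeq's table, with its start sites, and exons from GENCODE M21.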

Additional observations from a re-analysis of the deposited data

Results flagged for a closer look

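The share of Cct7 in the summed FPKM of the 8 subunits was 7.56% in the library labelled cKO 3 and 8.96% to 9.17% in the other 3 cKO libraries. The gap to the nearest other library was 0.869 of the group's whole range, above Dixon's critical value for 4 samples. It was the only such value among 18 checked (the level, the share and the summed level of the subunits in the cKO group), and chance alone marks about 1 in 20 groups. The CPM of Cct7 in that library, 146.4, lay inside the range of the other 6, so the low share goes with higher values of the other 7 subunits there.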

How the results depend on the processing

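No subunit passed an adjusted p under 0.05 under any of the 19 alternatives in which it was fitted. The number of genes called over the whole table, 0 with edgeR, was 198 with no filter on low counts, 12 with DESeq2, 3 with limma-trend on log2(FPKM + 1) with no filter, and 0 to 3 when leaving out each library; the cause was not tested. With the replicate block edgeR called 2 genes, and it changed no call of a subunit, whose median log2 fold change was 0.09 in the paired fit. The ratio of the highest to the lowest share was 3.26, and 1.67 on raw counts and 1.56 by the length of 1 transcript, 2 scales that differ from the deposited one in gene length alone. The median pairwise r, 0.76, was 0.62 with library size only and 0.48 to 0.89 when leaving out each library.

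Signs turned only for values near 0. Cct7 was at -0.013 with upper-quartile scaling, -9.7e-05 with no filter and -2.7e-05 with the filter of CPM of at least 1. Vbp1 was at -0.0073 with upper-quartile scaling and Pfdn5 at 0.0042 with the Y-linked covariate. Tbce was at -0.0014 and -0.0034 on log2(FPKM + 1) and log2(FPKM + 0.1), and at -0.0445 with the replicate block. When leaving out each library in turn, log2 fold changes ran from -0.0259 to 0.0841 for Cct6a, -0.0437 to 0.036 for Cct7, -0.0207 to 0.16 for Mkks, -0.055 to 0.064 for Vbp1, -0.0449 to 0.0364 for Pfdn5, -0.0135 to 0.082 for Pdcl, -0.0942 to 0.0672 for Pdcl3, -8.5e-05 to 0.0708 for Txndc9, -0.0734 to 0.00153 for Pdrg1, -0.0497 to 0.0894 for Tubb4a, -0.0844 to 0.12 for Tbce, -0.022 to 0.054 for Gnb1, -0.0799 to 0.042 for Gnb5, -0.0542 to 0.16 for Hspa8 and -0.0624 to 0.28 for Tia1.

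Each subunit had at least 1344 counts in each library.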
